A study of Mus musculus with 95 samples.

Results

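Cerebral cortex was set against kidney, liver and white adipose tissue (WAT) in the time-0 libraries of a mouse bulk RNA-seq series on a torpor-like state (TLS). The 8 time-0 cortex libraries, of 95 libraries in the series, were compared with 24 others, 8 each from kidney, liver and WAT, chosen by tissue and time-0 labels and by no measured value. All 32 came from C57BL/6J mice aged 122 days per the file header, before any TLS, with 4 female and 4 male libraries per tissue. Each library held polyadenylated RNA from a piece of tissue with all its cell types, taken after blood was flushed out with PBS; the labels give the word cortex and no dissection boundary. For a repeat, 32 libraries of mice after 3 months of TLS (labelled Stim) and 31 of their controls (labelled Con) were used; the labels name no inducing agent for TLS. Both groups were aged 205 days and came from the same strain and tissues.

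The cerebral cortex is the outer sheet of the forebrain. Its excitatory neurons release glutamate and its interneurons release GABA, through vesicles that fuse at the synapse, onto receptors held in the postsynaptic density. Astrocytes clear the transmitter, oligodendrocytes wrap axons in myelin, microglia are the resident macrophages, and a tight vascular barrier keeps blood proteins and immune cells out.

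Cortex libraries held 15028653 to 22573153 counts, and the others 14304253 to 22921038. CPM, the counts scaled to a common library size, are used below. At 1 CPM or more, 14702 to 14861 genes were present in cortex, against 13135 to 14319 in kidney, 11676 to 12725 in liver and 13938 to 15248 in WAT. In cortex the 100 most abundant genes took 17.1 to 19.2% of counts, against 25.8 to 49.3% in kidney, 42.3 to 58.9% in liver and 26.1 to 29.2% in WAT. Cortex libraries also varied least among themselves, with a shared coefficient of variation (edgeR's common BCV) of 0.123, against 0.221 for kidney, 0.275 for liver and 0.304 for WAT. Libraries that stood apart were Liver 1 and Kidney 8, in which the feature CT010467.1 took 18.6% and 21.9% of counts, and WAT 6, whose largest feature was the epididymal gene Gpx5. Within cortex, library 8 held the liver transcript Alb at 15.7 CPM, against 0 to 0.480 CPM in the other 7. The 8 libraries matched their label by Slc17a7, the vesicular glutamate transporter of cortical excitatory neurons, at 1071 to 1409.8 CPM, against at most 2.18 CPM in the 24 others.

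Of 18419 genes tested with edgeR's quasi-likelihood test, 7885 (42.8%) were higher and 7645 (41.5%) lower in cortex than the mean of the 3 other tissues at a Benjamini-Hochberg adjusted p below 0.05. Calls of either direction made up 84.3% of genes, and 82.2%, 84.9% and 79.2% against kidney, liver and WAT alone, so a call by itself sets few genes apart. A stricter rule was therefore used: a gene was called high or low in cortex when all 3 single comparisons passed the test in the same direction with more than a 4-fold difference. By that rule 2640 genes (14.3%) were high and 1469 (7.98%) were low in cortex. The same rule gave 689 high and 192 low genes for kidney, 795 and 1463 for liver, and 715 and 227 for WAT. All 8 cortex libraries lay above all 24 others for 4218 genes (22.9%) and below all 24 for 2401 (13%). With Liver 1, Kidney 8 and WAT 6 left out together, 2773 genes were high and 1385 low, of which 2590 and 1324 were shared with the full comparison. Fitted fold changes of genes near 0 in a group depend on the prior count, the small count added to each library before a ratio is taken. It was 0.125 here; with a prior count of 2, 2564 genes were high and 1021 low, and 42 of the 179 genes in the text moved by more than 1.5-fold. List medians that moved by that much are given with the second value in brackets. Scaling moved the centre of the comparison: the median log2 fold change over all genes was -0.02, and it shifted by 0.39 with total counts in place of TMM scaling and by 0.10 with RLE or DESeq2 size factors. With total counts, 60.5% of calls were higher in cortex, against 50.8% with TMM scaling.

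The share of counts in the high and low genes was read in the libraries that chose them, so its direction follows from the rule. High genes held 36.6 ± 0.281% of cortex counts (SD, n = 8), against 1.31 ± 0.318% in kidney, 0.439 ± 0.0214% in liver and 1.91 ± 0.174% in WAT. By the same rule, the high genes of kidney, liver and WAT held means of 17.9%, 43.8% and 16.4% of their own counts. Low genes held 0.708 ± 0.0334% of cortex counts, against 13.4 ± 1.32% in kidney, 24.6 ± 2.89% in liver and 16.7 ± 2.27% in WAT. In bulk tissue, fewer cells of a type and less RNA per cell cannot be told apart, which holds for every gene below.

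The most abundant high gene was Bc1, a short neuronal RNA that does not code for protein and is carried into dendrites. Bc1 lay between 6957 and 12379 CPM in cortex (median 9468), against medians of 40.6 in kidney, 13.4 in liver and 207 in WAT, with 459.6 in the highest of those 24 libraries. All 8 cortex libraries were far above the rest, and the log2 fold change was 7.23 ± 0.42 (SE, adjusted p = 8.5e-17). Per kilobase of exon it reached a level of 56083 CPM in cortex, against 1222 for the next high gene named, Nrgn. The transcript is 168 bases long (chr7:144914470-144914637, GRCm38, plus strand, GENCODE vM21) and is printed whole because a run of A divides its tRNA-like start from its unique end.
Bc1: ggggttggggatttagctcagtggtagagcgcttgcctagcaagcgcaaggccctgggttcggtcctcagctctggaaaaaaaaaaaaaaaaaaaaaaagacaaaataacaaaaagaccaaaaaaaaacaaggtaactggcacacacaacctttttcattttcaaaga

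Other genes led by abundance, among them genes of signalling and transport in neurons. Kif5a, a kinesin motor of axons, lay between 2304 and 3681 CPM in cortex (median 2927), against medians of 9.84 in kidney, 13.5 in liver and 7.54 in WAT, with 24.5 in the highest of those 24 libraries. Camk2n1, which inhibits calcium/calmodulin-dependent kinase II, was also present in kidney and liver, with medians of 2145 CPM in cortex, against 261 in kidney, 294 in liver and 36.0 in WAT. Meg3, a long noncoding RNA, had medians of 3392 CPM in cortex, against 2.16 in kidney, 7.28 in liver and 68.1 in WAT. Snhg11, another noncoding RNA, had medians of 1592 CPM in cortex, against 100.1 in kidney, 15.9 in liver and 86.3 in WAT. No cortex library of either overlapped the others.

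Among the clearest separations, measured as the lowest cortex library over the highest of the other 24, were those of Snap25, Camk2a, Grin1, Arpp21, Ptprn, Slc24a2 and Vxn, in that order. Snap25, the plasma membrane SNARE of vesicle fusion, lay between 1933 and 2461 CPM in cortex (median 2116), against medians of 0 in kidney, 0.109 in liver and 0.130 in WAT, with 0.446 in the highest of those 24 libraries. Its gap was 11.78 on the log2 scale with a prior count of 2. The gap of Vxn was still 9.84. Camk2a, a subunit of calcium/calmodulin-dependent kinase II, lay between 2320.0 and 3268 CPM in cortex (median 2616), against medians of 0.644 in kidney, 0.0536 in liver and 0.893 in WAT, with 1.41 in the highest of those 24 libraries. Ptprn, a protein of dense-core vesicles, had medians of 658 CPM in cortex, against 0.226 in kidney, 0.0372 in liver and 0.0189 in WAT. Arpp21, a phosphoprotein of dopamine-receptive neurons, had medians of 337 CPM in cortex, against 0 in kidney, 0 in liver and 0 in WAT.

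**Figure D1:**
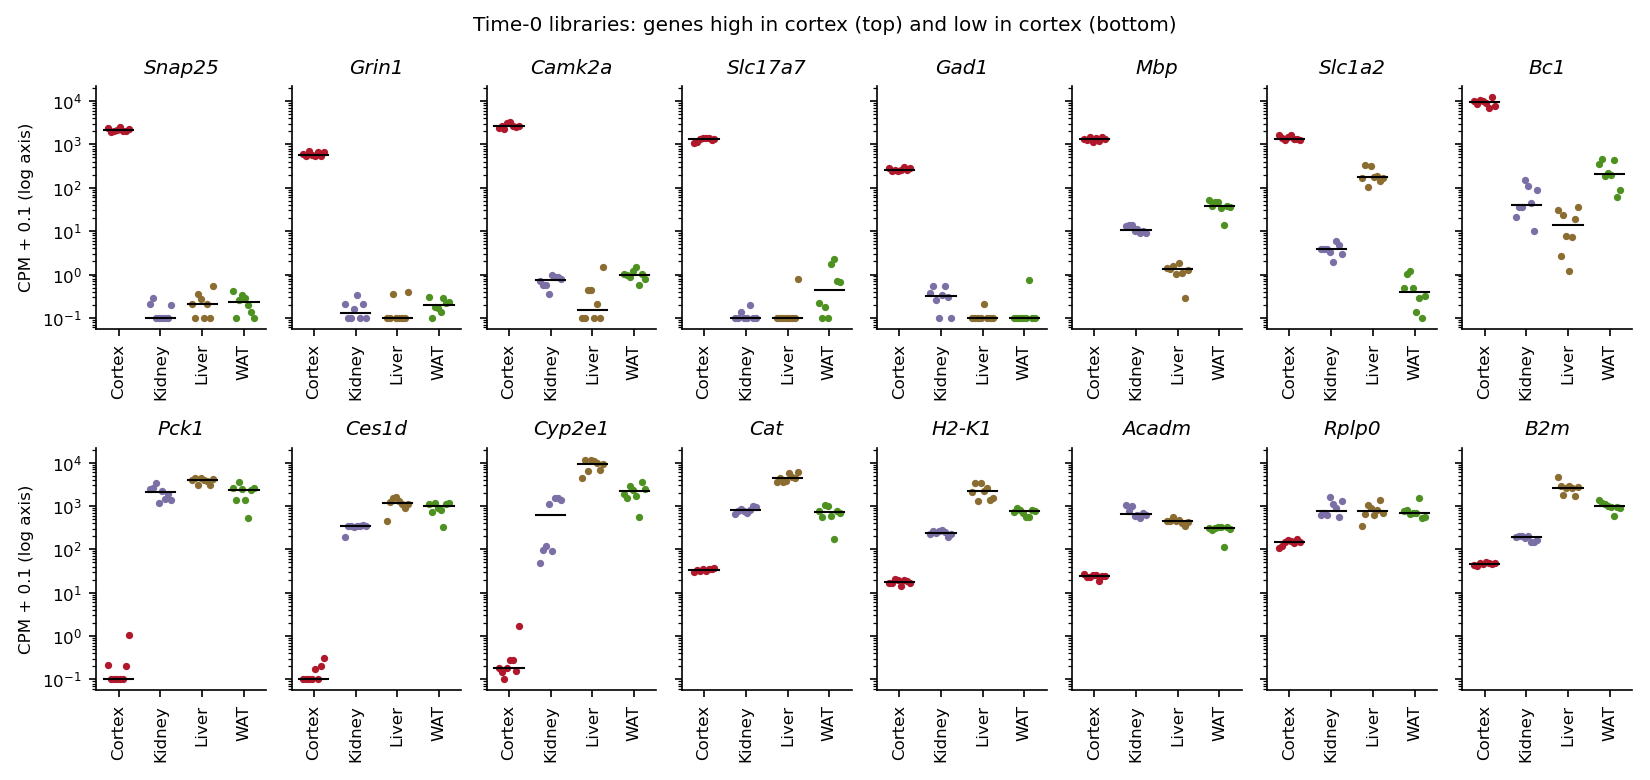
CPM plus 0.1 (log axis) in each time-0 library, 8 per tissue, for 8 genes high in cortex (top) and 8 low in cortex (bottom); black bars are medians. Snap25 sits at 1933 to 2461 CPM in all 8 cortex libraries and at or below 0.446 CPM in the other 24.

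Outside neurons, many neuronal genes are silenced by the repressor REST, which binds a DNA element called repressor element 1 (RE1). Rest itself had medians of 2.48 CPM in cortex, against 20.0 in kidney, 19.6 in liver and 13.7 in WAT, and a log2 fold change of -2.71 ± 0.16 (SE, adjusted p = 2.4e-16). RefSeq promoters (GRCm38.p6, 250 bases before to 50 after the gene start) were matched by symbol to 12109 of the 15401 protein-coding genes tested, which is 78.6%. The core letters AGCACC and GGACAG with 2 free bases between them, searched on both strands, were in 12 of these promoters (0.0991%), and in 16 of 27025 (0.0592%) in the whole table. All 12 were among the 1614 high genes with a promoter; 0 matches fell among 865 low genes and 0 among 9630 that were neither. The other 4 genes of the table with the core lay outside the protein-coding genes tested. A gene with counts in cortex alone could pass the count filter, which favours high genes among those tested. The fold changes had been seen before the letters were chosen, and other motifs were searched too. The tally is therefore a description, and a part of REST in these differences was not tested. The left end alone, TTCAGCACC, was in 0.52% of all promoters and 1.61% of those of high genes, and the right end GGACAGC in 9.2% and 11.3%. The cyclic AMP element TGACGTCA was in 3.28% and 3.84%, GGGCGG in 64.6% and 63.0%, and TATAAA in 9.77% and 10.7%; since under 80% of the genes have a promoter in the table, these shares were not compared further. The windows of the 12 genes are printed because they show how the core recurs with different middle letters and flanks (core in capitals, on the strand where it reads as above).
Fam163b (chr2:27142557-27142586, minus): ccagcgtcAGCACCAGGGACAGttcctcgc
Fbll1 (chr11:35799051-35799080, plus): gtccagtcAGCACCAGGGACAGctacctca
Gad2 (chr2:22622156-22622185, plus): gctgtggtAGCACCCTGGACAGcgcgttcc
Gria2 (chr3:80802984-80803013, plus): tcgattttAGCACCGCGGACAGcgctttgg
Hrh3 (chr2:180104569-180104598, plus): gcgcgggcAGCACCACGGACAGcgccgcgt
Lca5 (chr9:83441283-83441312, plus): cggagcccAGCACCCAGGACAGaccgaaag
Ogdhl (chr14:32321909-32321938, plus): gggaggtcAGCACCTCGGACAGcgagggcc
Osbp2 (chr11:3774786-3774815, plus): accgcttcAGCACCGCGGACAGcggccagc
Robo2 (chr16:75447348-75447377, minus): ttacccttAGCACCACGGACAGagcactaa
Scamp5 (chr9:57468190-57468219, minus): gaatatttAGCACCACGGACAGctcctgca
Sptbn4 (chr7:27396275-27396304, plus): gcggctccAGCACCACGGACAGttcccggt
Ttc9b (chr7:27653934-27653963, minus): tgagcatcAGCACCGGGGACAGcgcgccgc

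The genes behind these windows ranged widely in level. Gria2, an AMPA-type glutamate receptor subunit, lay between 454 and 594 CPM in cortex (median 512), against medians of 0.0240 in kidney, 0 in liver and 0 in WAT, with 38.0 in the highest of those 24 libraries. That highest value was WAT 6, one of the libraries that stood apart, and the other 23 reached at most 0.148 CPM. Gad2, which makes GABA, had medians of 111 CPM in cortex, against 0 in kidney, 0 in liver and 0 in WAT. Robo2, a receptor that guides axons, had medians of 80.7 CPM in cortex, against 6.81 in kidney, 1.65 in liver and 0.257 in WAT. Scamp5, a membrane protein of secretory vesicles, was present everywhere, with medians of 337 CPM in cortex, against 55.8 in kidney, 18.0 in liver and 20.4 in WAT, and a log2 fold change of 3.602 ± 0.08 (SE, adjusted p = 3.3e-28). Lca5, a protein of cilia, was the lowest, with medians of 6.45 CPM in cortex, against 0.707 in kidney, 0.325 in liver and 1.54 in WAT. In the Gria2 promoter (chr3:80802786-80803085, minus strand) the core lies upstream of the gene start and reads as its reverse complement, in capitals; the sequence is shown because it places the core relative to the start of a gene that held no count in liver.
Gria2 promoter: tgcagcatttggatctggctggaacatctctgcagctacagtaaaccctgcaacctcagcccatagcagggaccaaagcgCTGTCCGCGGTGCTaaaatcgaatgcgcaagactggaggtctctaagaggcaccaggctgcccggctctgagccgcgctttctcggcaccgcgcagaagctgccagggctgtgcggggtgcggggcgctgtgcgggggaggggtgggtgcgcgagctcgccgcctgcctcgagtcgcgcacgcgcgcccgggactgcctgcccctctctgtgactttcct

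Genes of synaptic vesicle release were high as a group. All 30 listed members were called higher in cortex and all 30 were high against each other tissue, with a median log2 fold change of 8.003 beside -0.02 over all genes. Their summed level was 16812 to 19323 CPM in cortex libraries, against 256 to 356 in kidney, 95.8 to 122 in liver and 293 to 364 in WAT. Syt1, the calcium sensor of fast release, lay between 1086 and 1407 CPM in cortex (median 1315), against medians of 0.450 in kidney, 14.2 in liver and 0.0473 in WAT, with 29.1 in the highest of those 24 libraries. Cplx2, which clamps the fusion complex, had medians of 1352 CPM in cortex, against 28.8 in kidney, 3.64 in liver and 10.8 in WAT. Dnm1, which pinches vesicles off the membrane, had medians of 1279 CPM in cortex, against 3.05 in kidney, 0.311 in liver and 39.4 in WAT. Syp, a vesicle membrane protein, had medians of 1274 CPM in cortex, against 12.3 in kidney, 1.59 in liver and 24.6 in WAT. Low levels outside cortex fell in different tissues: the highest non-cortical level was in liver for Syt1 and in WAT for Dnm1 and Syp.

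On the receiving side, all 26 members of the postsynaptic density list were called higher, 25 of them high against each tissue, with a median of 7.81. Nrgn, which binds calmodulin in dendrites, lay between 1287 and 1999 CPM in cortex (median 1817), against medians of 2.92 in kidney, 0.574 in liver and 1.78 in WAT, with 6.78 in the highest of those 24 libraries. Cortex library 2 was the lowest of the 8. Ppp3ca, the catalytic subunit of calcineurin, was present in every tissue, with medians of 1202 CPM in cortex, against 63.8 in kidney, 91.1 in liver and 79.0 in WAT, and a log2 fold change of 3.95 ± 0.09 (SE, adjusted p = 1.1e-27). Camk2b, another kinase II subunit, had medians of 823 CPM in cortex, against 2.10 in kidney, 5.44 in liver and 0.961 in WAT. WAT 6, which stood apart, held it at 185 CPM, and the log2 fold change was 8.497 without that library and 7.52 with it.

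Most receptors for glutamate and GABA were at or near 0 elsewhere. Of 18 ionotropic glutamate receptor genes, 17 were called higher and high against each tissue, with a median of 8.99 (8.58 with bounds, 6.72 with a prior count of 2), where bounds replace fitted values of genes without counts in a tissue. Grin1, the obligatory NMDA receptor subunit, lay between 541 and 688 CPM in cortex (median 583), against medians of 0.0320 in kidney, 0 in liver and 0.101 in WAT, with 0.297 in the highest of those 24 libraries. Gria1, an AMPA receptor subunit, had medians of 328 CPM in cortex, against 0.0261 in kidney, 0.0850 in liver and 0.0920 in WAT. Grin2b, an NMDA receptor subunit, had medians of 200.4 CPM in cortex, against 0 in kidney, 0.211 in liver and 1.16 in WAT. Grik5, a kainate receptor subunit, was the exception in level, with medians of 296 CPM in cortex, against 27.3 in kidney, 30.3 in liver and 12.3 in WAT, though no library overlapped. All 7 metabotropic receptor genes were high, with a median of 10.86 (8.33 with a prior count of 2). Grm5 lay between 109 and 125 CPM in cortex and had no count in kidney or liver. All 14 GABA receptor genes tested were high, with a median of 8.63 (8.40 with bounds, 7.60 with a prior count of 2). Gabbr1, a subunit of the GABA receptor that couples to G proteins, had medians of 681 CPM in cortex, against 22.8 in kidney, 3.84 in liver and 21.9 in WAT. Gabbr2, its partner, had a median of 27.6 CPM in liver, below the lowest cortex library at 244.

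Most ion channel genes were higher in cortex, with exceptions. Of 11 voltage-gated sodium channel genes tested, 10 were called higher and 9 were high against each tissue, with a median of 7.91 (6.91 with a prior count of 2). Scn8a, a pore subunit of axons, had medians of 272 CPM in cortex, against 0.250 in kidney, 1.35 in liver and 0.891 in WAT. Scn2a, another, had 218 CPM in cortex, against 0.234 in kidney, 0.0477 in liver and 1.87 in WAT. Scn7a, a sodium channel of glia and other tissues, went the other way, with 2.22 to 3.27 CPM in cortex, against 1.27 to 2.79 in kidney, 0 to 0.773 in liver and 39.4 to 200.2 in WAT, and a log2 fold change of -0.58 ± 0.24 (SE, adjusted p = 0.0247), which turned to 1.90 when WAT was left out. All 21 potassium channel genes were called higher and 19 were high, with a median of 8.01 (7.87 with bounds, 7.41 with a prior count of 2). All 15 calcium channel genes were high, with a lower median of 5.95. Cacna1a, the pore of P/Q-type channels, had medians of 170.0 CPM in cortex, against 2.703 in kidney, 1.47 in liver and 10.2 in WAT.

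Markers of excitatory neurons and cortical layers included 24 of 25 called higher and 18 high against each tissue, with a median of 6.04. Slc17a7 lay between 1071 and 1409.8 CPM in cortex (median 1340.2), against medians of 0 in kidney, 0 in liver and 0.349 in WAT, with 2.18 in the highest of those 24 libraries. Lamp5, found in upper layers and some interneurons, lay between 153 and 222 CPM in cortex (median 184), against medians of 0 in kidney, 0 in liver and 0 in WAT, with 0.0961 in the highest of those 24 libraries. Mef2c, a transcription factor of neurons, muscle and lymphoid cells, had medians of 408 CPM in cortex, against 6.99 in kidney, 4.71 in liver and 18.8 in WAT. Cux2, an upper-layer factor, was shared with liver, where its level ran between 0 and 249 CPM against 104 to 141 in cortex. Its relative Cux1 had medians of 80.2 CPM in cortex, against 244 in kidney, 34.2 in liver and 67.1 in WAT. Its log2 change was -0.003 with TMM scaling, 0.39 with total counts and 0.76 without kidney, and it was not called with TMM scaling.

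Interneuron genes were also high, with 19 of 20 called higher, 15 of them high against each tissue, and a median of 8.70 (8.46 with bounds, 6.35 with a prior count of 2). Gad1, which makes GABA, lay between 237 and 301 CPM in cortex (median 257), against medians of 0.224 in kidney, 0 in liver and 0 in WAT, with 0.663 in the highest of those 24 libraries. That value was WAT 6, and the log2 fold change was 13.07 without it and 11.88 with it. Sst, the peptide somatostatin, had medians of 152 CPM in cortex, against 0 in kidney, 0 in liver and 0 in WAT. Maf, a factor of some interneurons and of many other cells, was low in cortex, with medians of 30.5 CPM in cortex, against 311 in kidney, 107 in liver and 148 in WAT, and a log2 fold change of -2.57 ± 0.19 (SE, adjusted p = 5.4e-14). Among neuropeptides and the proteins that process them, 23 of 24 were called higher and 21 were high, with a median of 10.003 (8.87 with bounds, 7.19 with a prior count of 2). Cpe, which trims peptide precursors, lay between 1324 and 1839 CPM in cortex (median 1634), against medians of 44.7 in kidney, 0.935 in liver and 47.2 in WAT, with 146 in the highest of those 24 libraries. Pcsk1n, an inhibitor of a precursor-cutting protease, had medians of 622 CPM in cortex, against 0.0787 in kidney, 0 in liver and 0 in WAT. On the log2 scale the difference was 13.84 without WAT 6 and 13.004 with it. Chgb, a granule protein, had medians of 519 CPM in cortex, against 0.103 in kidney, 0 in liver and 0.140 in WAT. Nrn1, a protein of neurite growth, had a higher level in liver, with medians of 167 CPM in cortex, against 0.146 in kidney, 336 in liver and 9.46 in WAT. Nmb, the peptide neuromedin B, was not called and overlapped in every tissue, with 1.03 to 3.01 CPM in cortex, against 0.938 to 3.42 in kidney, 0.416 to 2.67 in liver and 0.876 to 4.94 in WAT.

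Several astrocyte genes were shared with other tissues. Of 24 listed, 20 were called higher, 1 lower, and 12 were high against each tissue, with a median of 5.96. Slc1a2, the main glutamate transporter, lay between 1241 and 1661 CPM in cortex (median 1363), against medians of 3.70 in kidney, 176 in liver and 0.302 in WAT, with 328 in the highest of those 24 libraries. Sparcl1, a secreted matrix protein, had medians of 1512 CPM in cortex, against 18.9 in kidney, 6.43 in liver and 242 in WAT. Aldh1l1, a folate enzyme used to label astrocytes, was lower in cortex than in any other tissue, with medians of 61.3 CPM in cortex, against 790.2 in kidney, 2102 in liver and 184 in WAT, and a log2 fold change of -3.49 ± 0.26 (SE, adjusted p = 6.9e-14).

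For oligodendrocytes and myelin, 21 of 24 genes were called higher, 3 lower, and 15 were high against each tissue, with a median of 6.84 (6.59 with bounds, 5.76 with a prior count of 2). Mbp, which compacts myelin, lay between 1111 and 1517 CPM in cortex (median 1348), against medians of 10.6 in kidney, 1.22 in liver and 37.6 in WAT, with 52.0 in the highest of those 24 libraries. Called lower were 3 genes, Trf, Aspa and Qdpr. Trf, the iron carrier transferrin, had medians of 239 CPM in cortex, against 46.3 in kidney, 20026 in liver and 2304 in WAT. Aspa, which breaks down N-acetylaspartate, had 10.03 CPM in cortex, against 87.4 in kidney, 15.3 in liver and 24.02 in WAT. Qdpr, a pterin reductase, had 138 CPM in cortex, against 400.5 in kidney, 844 in liver and 83.0 in WAT. Of 12 precursor genes 10 were called higher, 2 lower and 7 high, with a median of 7.13 (5.77 with a prior count of 2). Ptprz1, a receptor phosphatase, had medians of 123.5 CPM in cortex, against 0.0481 in kidney, 0 in liver and 1.01 in WAT. Enpp6, a choline phosphodiesterase, had 5.56 CPM in cortex, against 125 in kidney, 2.89 in liver and 1.39 in WAT. Its log2 fold change was 0.95 without kidney and -0.83 with it.

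Genes of microglia, vessels and mural cells were mixed in direction. Of 20 microglial genes 11 were called higher, 5 lower and 2 were high against each tissue, beside 14.3% high of all genes, with a median of 0.91 and a summed level of 413 to 527 CPM in cortex, against 403 to 534 in kidney, 223 to 444 in liver and 801 to 1175 in WAT. Named after their values were seen, the 2 high genes were the receptors P2ry12 and Cx3cr1. P2ry12, for nucleotides, had medians of 18.7 CPM in cortex, against 0.0708 in kidney, 1.29 in liver and 3.63 in WAT. Cx3cr1, for the chemokine fractalkine, had 37.2 CPM in cortex, against 3.66 in kidney, 1.04 in liver and 1.01 in WAT. C1qa, a complement chain made by macrophages of every tissue, had medians of 32.2 CPM in cortex, against 18.4 in kidney, 60.4 in liver and 156 in WAT, and a log2 fold change of -0.90 ± 0.16 (SE, adjusted p = 3.8e-06). Of 18 genes of brain endothelium 10 were called higher, 7 lower and 2 high, beside 42.8% higher, 41.5% lower and 14.3% high over all genes. The median of these 18 was 0.34, which changed sign without liver. Spock2, a matrix proteoglycan, had medians of 859 CPM in cortex, against 1.41 in kidney, 0.784 in liver and 73.0 in WAT. Kdr, a VEGF receptor of all endothelium, had 10.9 CPM in cortex, against 44.4 in kidney, 33.7 in liver and 81.7 in WAT. Pecam1, an adhesion molecule of the same cells, had medians of 16.3 CPM in cortex, against 58.1 in kidney, 17.9 in liver and 118 in WAT. Of 10 mural cell genes 4 were called higher and 6 lower, beside 42.8% and 41.5% over all genes. None passed the stricter rule, and their median was -0.72.

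Markers of neighbouring brain regions were read in the same libraries. All 13 striatal genes were called higher and 9 were high against each tissue, with a median of 7.49 (7.08 with bounds, 6.12 with a prior count of 2) and a summed level of 302 to 1411 CPM over the cortex libraries. Drd1 and Drd2, the dopamine receptors of striatal output neurons, lay between 6.08 and 39.7 CPM and between 4.56 and 51.9 CPM. Of 14 genes of thalamus and cerebellum listed, 10 were tested, with 7 called higher, 2 lower and 3 high, and a median of 2.03. Of 12 choroid plexus genes listed, 10 were tested. Of these 10, 4 were called higher and 4 lower, close to the shares over all genes, 42.8% higher and 41.5% lower. The median of these 10 genes was 1.05 (0.64 with bounds, 0.32 with a prior count of 2). That median changed sign under limma voom and without liver or WAT. The sum of the choroid plexus list was 5.44 to 509 CPM over the cortex libraries, and Ttr alone was 1.31 to 453. Aqp1 and Folr1, a water channel and a folate receptor of that epithelium, reached at most 2.91 and 3.27 CPM. Of 12 genes of meninges and fibroblasts 5 were called higher and 7 lower, beside those same shares over all genes. The median of these 12 was -1.76, from -2.50 to -0.36 over the alternatives. Ptgds, the prostaglandin D synthase of meninges and glia, had medians of 364 CPM in cortex, against 4.14 in kidney, 9.71 in liver and 1.28 in WAT, and a log2 fold change of 6.58 without WAT 6 and 5.64 with it. The part of these neighbouring regions in the other results was not tested.

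Genes of neuronal shape and transport were higher throughout. All 33 listed genes of the neuronal cytoskeleton and axon were called higher and 27 were high against each tissue, with a median of 8.40. Kif1a, a kinesin of vesicle precursors, lay between 925 and 1036 CPM in cortex (median 989), against medians of 0.667 in kidney, 0.315 in liver and 1.11 in WAT, with 1.95 in the highest of those 24 libraries. Map1a, which binds microtubules, had medians of 1179 CPM in cortex, against 2.34 in kidney, 1.11 in liver and 25.6 in WAT. Its relative Map1b had 725 CPM in cortex, against 4.46 in kidney, 1.76 in liver and 26.6 in WAT. Tubb3, the neuronal beta tubulin, had 265 CPM in cortex, against 0.0708 in kidney, 0 in liver and 0.611 in WAT. Of 16 genes of the neural extracellular matrix 15 were called higher and 10 were high, with a median of 7.16 (5.74 with a prior count of 2). Bcan, a proteoglycan of perineuronal nets, had medians of 271 CPM in cortex, against 0 in kidney, 0 in liver and 0.0187 in WAT. Ncan, another such proteoglycan, had 203 CPM in cortex, against 0 in kidney, 0 in liver and 1.30 in WAT. Tnc, tenascin C, was not called, with medians of 3.13 CPM in cortex, against 5.99 in kidney, 0.753 in liver and 6.02 in WAT.

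RNA-binding proteins that direct neuronal splicing followed. Of 22 listed, 21 were called higher, 0 lower and 17 were high, with a median of 6.92 (6.67 with bounds, 5.46 with a prior count of 2). Celf5, a splicing factor of the nervous system, lay between 279 and 314 CPM in cortex (median 287), against medians of 0.0719 in kidney, 0 in liver and 0.327 in WAT, with 1.35 in the highest of those 24 libraries. Elavl3, an RNA-binding protein of neurons, had medians of 252 CPM in cortex, against 2.34 in kidney, 0 in liver and 0.435 in WAT. Celf2, which is shared with WAT, had medians of 294 CPM in cortex, against 9.17 in kidney, 25.5 in liver and 173 in WAT. Of 10 regulators known to be turned down in neurons, 7 were called lower, 2 higher and 3 low against each tissue, with a median of -2.13. Rbm47, a splicing factor of epithelia, lay between 0.119 and 1.21 CPM in cortex (median 0.748), against medians of 146 in kidney, 129 in liver and 35.8 in WAT, with 29.1 in the lowest of those 24 libraries. Celf1 and Msi2 were the 2 called higher, with log2 fold changes of 0.93 ± 0.08 and 0.74 ± 0.11.

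Transcription factors of the forebrain and of the trunk went in opposite directions. Of 31 forebrain factors 30 were called higher, 1 lower and 26 were high against each tissue, with a median of 8.26 (7.80 with bounds, 5.85 with a prior count of 2). Zbtb18, a repressor in cortical neurons, had medians of 257 CPM in cortex, against 19.8 in kidney, 23.8 in liver and 25.2 in WAT. Hlf, a PAR-family factor, had medians of 166 CPM in cortex, against 83.5 in kidney, 51.6 in liver and 14.6 in WAT. Pou3f3, which also acts in the nephron, had 93.6 to 113 CPM in cortex, against 58.4 to 153 in kidney, 0 to 0.172 in liver and 0 to 85.2 in WAT. Its log2 change was 7.83 without WAT 6 and 5.03 with it. Dbp, a clock output factor, was the one called lower, with medians of 104 CPM in cortex, against 198 in kidney, 360.0 in liver and 161 in WAT. Trunk Hox genes, which pattern the body behind the head, went the other way: of 31 tested 0 were called higher, 23 lower and 11 low against each tissue, with a median of -7.43 (-7.55 with bounds, -4.87 with a prior count of 2). Their summed level was 0.0436 to 0.544 CPM in cortex, against 502 to 669.8 in kidney, 7.12 to 24.1 in liver and 325 to 1063 in WAT. Hoxd8 had no count in any cortex library, against 78.3 to 118 CPM in kidney and 17.1 to 99.5 in WAT. Of 40 factors of endoderm and mesoderm 26 were called lower, 5 higher and 9 low, with a median of -4.17 (-4.23 with bounds, -3.15 with a prior count of 2). Hnf4a, a factor of hepatocytes and proximal tubule, had 0 to 0.127 CPM in cortex, against 698 to 997 in kidney, 547 to 999.9 in liver and 0 to 7.10 in WAT. On the log2 scale the difference was -12.68 without cortex library 8, -10.92 without WAT 6 and -11.62 with both. Cebpa, a factor of liver and fat, had 7.30 to 13.6 CPM in cortex, against 38.6 to 63.8 in kidney, 482 to 1077 in liver and 399.8 to 1079 in WAT. Emx2, which acts in both cortex and the urogenital ridge, had medians of 9.51 CPM in cortex, against 39.9 in kidney, 0 in liver and 11.6 in WAT.

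**Figure D2:**
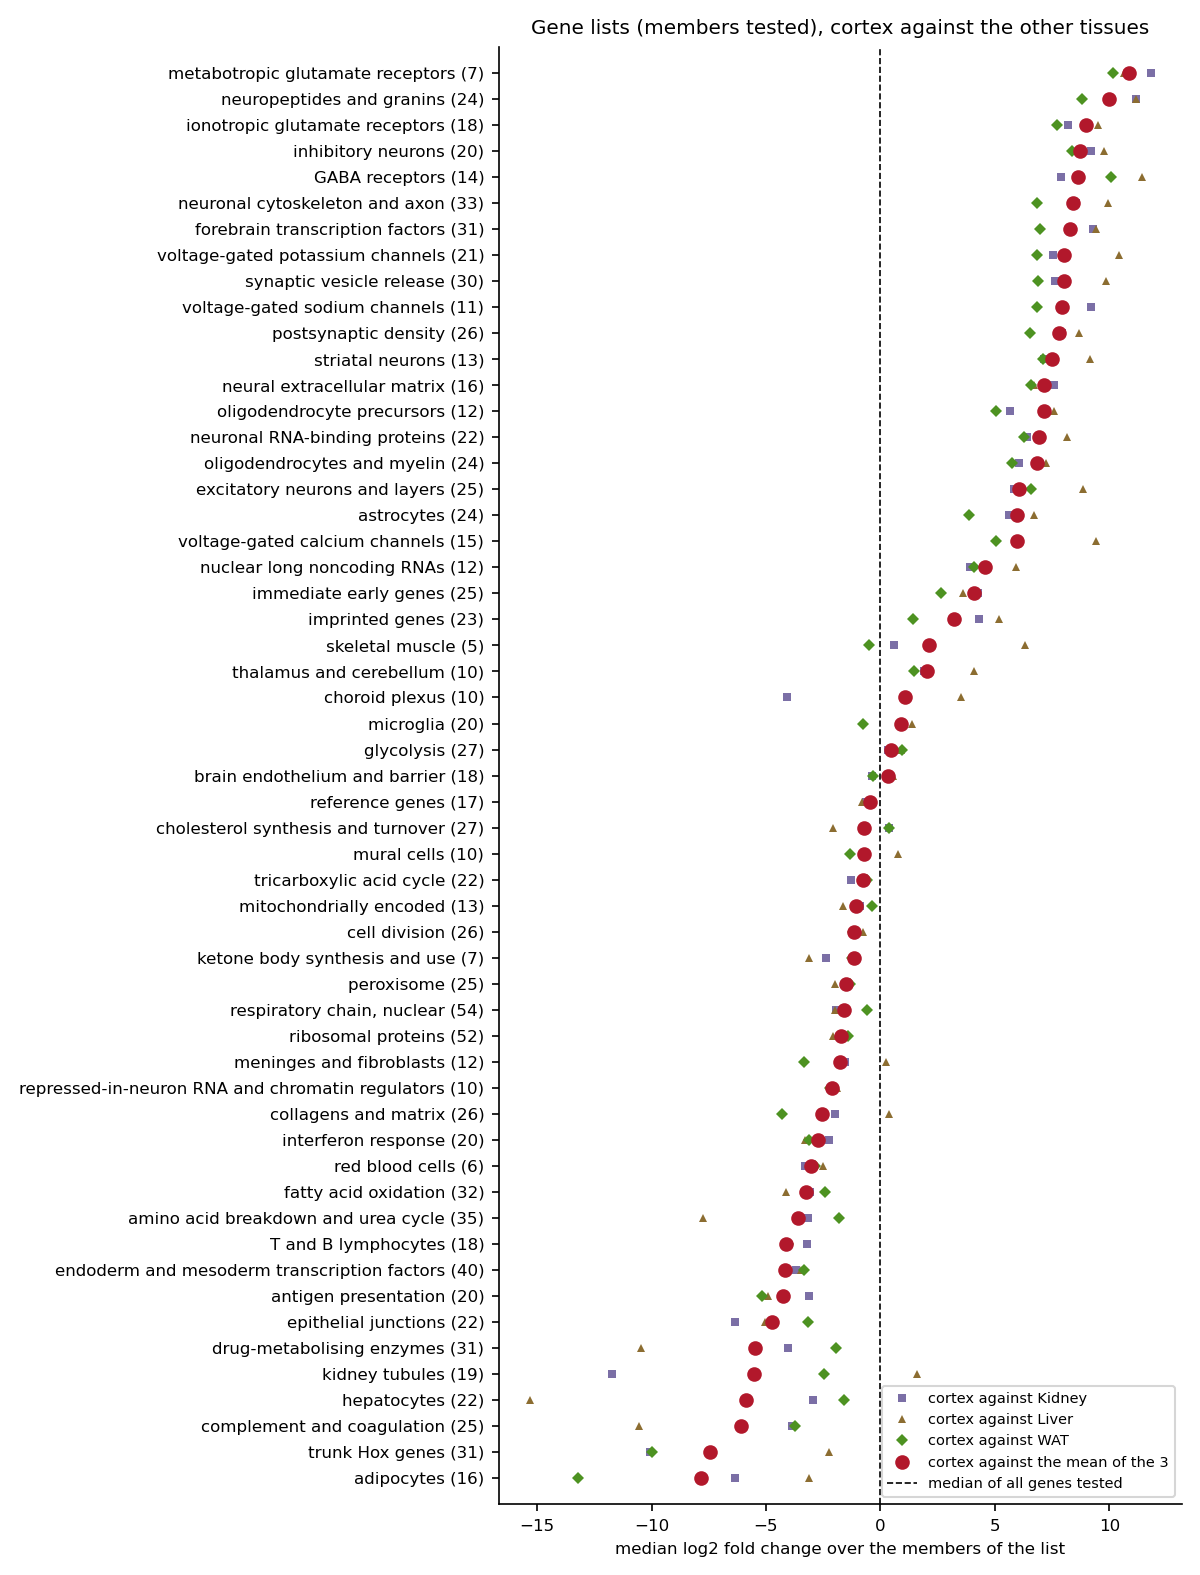
Median log2 fold change over the members of 55 gene lists (members tested in brackets), for cortex against the mean of the 3 other tissues (circles) and against each of kidney, liver and WAT (smaller symbols). Metabotropic glutamate receptors have the highest median, 10.86 (8.33 with a prior count of 2), and genes of adipocytes the lowest, -7.82 (-5.80 with a prior count of 2); the dashed line is the median of all genes.

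Many gene families hold a form known from neurons or glia and a form used more broadly. Of 34 such pairs listed, 33 had both forms in the file and 32 had both tested. The neural form was called higher in cortex in 33 of 33 and was high against each tissue in 29, with a median log2 fold change of 7.26. Of the 32 broad forms tested, 20 were called lower and 8 higher, beside 41.5% lower and 42.8% higher over all genes, with a median of -0.77. Pairs were listed because a form is known from neurons or glia, so these counts describe the pairs and not gene families at large. Of the SNAREs, Snap25 stood against Snap23, with medians of 9.20 CPM in cortex, against 45.3 in kidney, 25.4 in liver and 49.5 in WAT, and a log2 fold change of -2.03 ± 0.15 (SE, adjusted p = 7.7e-14). Vamp8, the broad vesicle SNARE, lay between 4.01 and 5.69 CPM in cortex (median 5.28), against medians of 284 in kidney, 312 in liver and 58.9 in WAT, with 49.5 in the lowest of those 24 libraries. Vamp2, the synaptic form, had medians of 927 CPM in cortex, against 82.5 in kidney, 32.2 in liver and 79.7 in WAT.

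Several enzymes and transporters also had a form for each side. For glucose transporters, Slc2a3 had medians of 111 CPM in cortex, against 0.876 in kidney, 0.233 in liver and 11.8 in WAT. Slc2a2 had medians of 0 CPM in cortex, against 94.1 in kidney, 336 in liver and 0.294 in WAT. Slc2a2 had a log2 fold change of -11.00 without cortex library 8 and -9.90 with it. Cpt1c, a brain form of carnitine palmitoyltransferase, had 111 CPM in cortex, against 2.16 in kidney, 1.22 in liver and 8.25 in WAT. Cpt1a, the form of liver that feeds fatty acids to mitochondria, had medians of 23.8 CPM in cortex, against 328 in kidney, 362 in liver and 87.1 in WAT. Acsl6 and Acsl1, which activate fatty acids, had log2 fold changes of 9.39 ± 0.41 and -3.85 ± 0.26, and that of Acsl6 was 10.03 without WAT 6. Ptbp2 and Ptbp1, splicing repressors that replace each other as neurons form, had log2 fold changes of 2.39 ± 0.15 and -1.96 ± 0.11. The broad forms Eno1 (0.00 ± 0.17), Elavl1 (-0.15 ± 0.08) and Mt2 (0.01 ± 0.47) were not called, and Elavl1 turned to 0.25 with total counts.

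**Figure D3:**
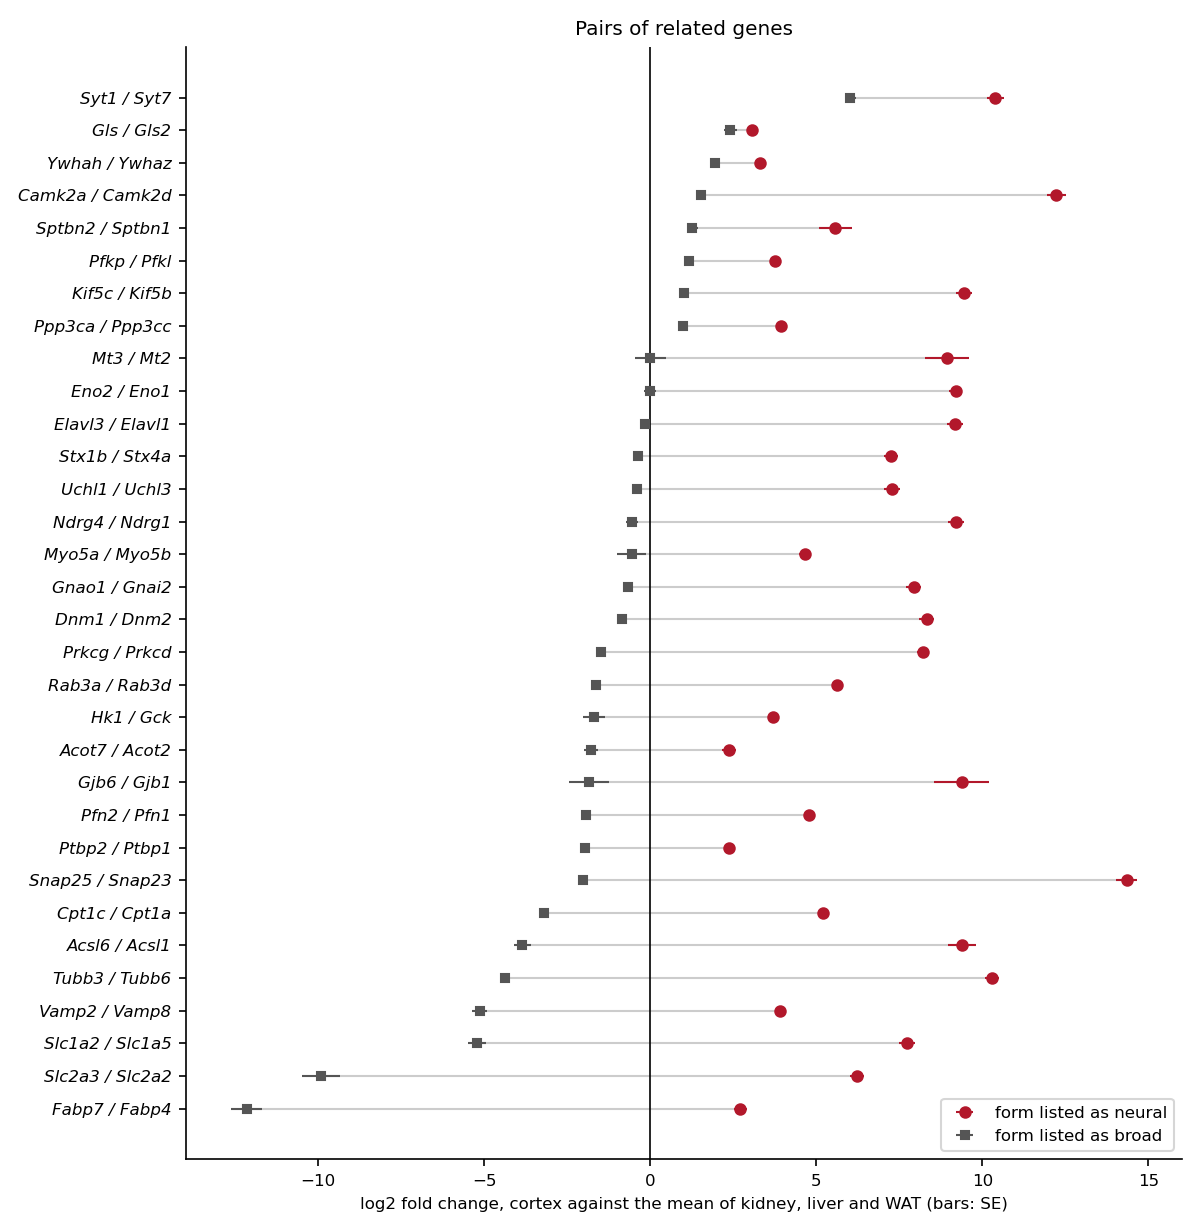
Log2 fold change of cortex against the mean of kidney, liver and WAT (bars are SE) for 32 pairs of related genes, with the neural form as a circle and the broad form as a square. Every circle lies right of 0, and the squares run between -12.14 for Fabp4 and 6.02 for Syt7.

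The 10 low genes with the highest level in all 3 other tissues were Pck1, Ftl1, Selenop, Aldh2, Igfbp4, Rplp0, Cyp2e1, Cat, Gpx1 and Pcx. Pck1, which commits carbon to glucose and glycerol synthesis, lay between 0 and 0.972 CPM in cortex (median 0), against medians of 2057 in kidney, 3997 in liver and 2392 in WAT, with 514 in the lowest of those 24 libraries. Cortex library 8 held 0.972 CPM and the other 7 at most 0.119; the log2 fold change was -16.09 without that library and -13.95 with it. Ftl1, the ferritin light chain, lay between 100.4 and 223 CPM in cortex (median 159), against medians of 3934 in kidney, 6494 in liver and 1516 in WAT, with 1082 in the lowest of those 24 libraries. Selenop, the plasma selenium carrier, had medians of 113 CPM in cortex, against 1171 in kidney, 6600.4 in liver and 1075 in WAT. Aldh2, the mitochondrial aldehyde dehydrogenase, had medians of 85.7 CPM in cortex, against 1089 in kidney, 4466 in liver and 1004 in WAT. Igfbp4, which binds insulin-like growth factors, had medians of 94.3 CPM in cortex, against 1279 in kidney, 2642 in liver and 907 in WAT. Gpx1, which reduces peroxides, had 39.4 CPM in cortex, against 1999.5 in kidney, 4215 in liver and 722 in WAT.

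By gap between the highest cortex library and the lowest of the others, the leading low genes were Ces1d, Pck1, Adh1, Ces1f, Cd36, Acp5, Sucnr1 and Igfals. Ces1d, a carboxylesterase that splits lipid esters, lay between 0 and 0.211 CPM in cortex (median 0), against medians of 345 in kidney, 1161 in liver and 1013 in WAT, with 189.9 in the lowest of those 24 libraries. The gap was 9.24 on the log2 scale. Its log2 fold change was -14.45 without cortex library 8 and -13.64 with it. Adh1, an alcohol dehydrogenase, lay between 0.0419 and 0.403 CPM in cortex (median 0.257), against medians of 470.5 in kidney, 4047 in liver and 174 in WAT, with 126 in the lowest of those 24 libraries. Cd36, which takes up fatty acids, had medians of 0.348 CPM in cortex, against 182 in kidney, 88.0 in liver and 2579.8 in WAT. Sucnr1, the succinate receptor, had no count in cortex and 7.51 to 62.4 CPM over the other 24 libraries.

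Fatty acid oxidation and the peroxisome were low as groups. Of 32 fatty acid oxidation genes 27 were called lower, 5 higher and 20 were low against each tissue, with a median of -3.25. Acadm, a dehydrogenase for medium chains, lay between 18.5 and 26.5 CPM in cortex (median 23.9), against medians of 650.3 in kidney, 449 in liver and 310.5 in WAT, with 116 in the lowest of those 24 libraries. Acaa2, a thiolase of mitochondria, had medians of 13.1 CPM in cortex, against 344 in kidney, 1733 in liver and 126 in WAT. Those called higher included Acsl6, Cpt1c and Acsl3, the last with a log2 fold change of 3.01 ± 0.16. All 25 peroxisomal genes were called lower and 6 were low, with a median of -1.50. Cat, catalase, lay between 30.1 and 36.2 CPM in cortex (median 33.9), against medians of 793 in kidney, 4303 in liver and 721 in WAT, with 175 in the lowest of those 24 libraries. Scp2, a lipid transfer protein and thiolase, had medians of 58.1 CPM in cortex, against 568 in kidney, 2739 in liver and 627 in WAT. Of 7 genes of ketone metabolism 5 were called lower and 1 higher, with a median of -1.16. Oxct1, which uses ketones, had medians of 231 CPM in cortex, against 1326 in kidney, 5.22 in liver and 321 in WAT.

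Most genes of amino acid breakdown and most drug-metabolising enzymes listed were called lower in cortex. Of 35 genes of amino acid breakdown and the urea cycle 30 were called lower, 2 higher and 12 low, with a median of -3.59. Ass1, an enzyme of the urea cycle, had medians of 24.2 CPM in cortex, against 3152 in kidney, 4975 in liver and 3.73 in WAT. Gls2, the liver glutaminase, had 27.5 CPM in cortex, against 0.307 in kidney, 709 in liver and 0.528 in WAT. Of 31 drug-metabolising enzymes 24 were called lower, 2 higher and 11 low, with a median of -5.48. Cyp2e1, which oxidises ethanol and solvents, lay between 0 and 1.56 CPM in cortex (median 0.0815), against medians of 617 in kidney, 9452 in liver and 2151 in WAT, with 49.0 in the lowest of those 24 libraries. Its log2 change was -14.52 without cortex library 8 and -13.23 with it. Sult4a1, a sulphotransferase of neurons, lay between 343 and 453 CPM in cortex (median 424), against medians of 0.0829 in kidney, 0.0802 in liver and 0.514 in WAT, with 1.27 in the highest of those 24 libraries. Of 27 cholesterol genes 16 were called lower and 3 higher, with a median of -0.70, which changed sign without liver. Cyp46a1, which removes cholesterol from neurons, lay between 180.2 and 269 CPM in cortex (median 232), against medians of 2.54 in kidney, 9.67 in liver and 0.971 in WAT, with 10.9 in the highest of those 24 libraries. Cyp27a1, the broad sterol hydroxylase, had medians of 4.09 CPM in cortex, against 51.04 in kidney, 696 in liver and 56.2 in WAT.

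Of 27 glycolytic genes 14 were called higher and 9 lower, beside 42.8% higher and 41.5% lower over all genes, with a median of 0.47. Aldoa, the aldolase of most tissues, had medians of 1595 CPM in cortex, against 1211 in kidney, 247 in liver and 1154 in WAT. Pkm, the pyruvate kinase of most tissues, had medians of 1134 CPM in cortex, against 382 in kidney, 26.3 in liver and 364 in WAT. Ldha, a lactate dehydrogenase subunit, had medians of 233 CPM in cortex, against 531 in kidney, 835 in liver and 608 in WAT. Ldhb, the other subunit, was highest in kidney, with 386 CPM in cortex, against 1857 in kidney, 3.28 in liver and 71.6 in WAT. Of 22 genes of the tricarboxylic acid cycle 18 were called lower and 1 higher, with a median of -0.78. Pcx, which refills the cycle from pyruvate, lay between 62.3 and 80.7 CPM in cortex (median 73.0), against medians of 745 in kidney, 609 in liver and 973 in WAT, with 365 in the lowest of those 24 libraries.

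Nuclear genes of the respiratory chain were lower in cortex in 53 of 54 cases and 1 was low against each tissue, with a median of -1.59 that ranged from -1.999 to -1.17 over the alternatives. Their sum was 5071 to 6769 CPM in cortex, against 16047 to 35397 in kidney, 18027 to 28105 in liver and 7445 to 11799.9 in WAT. Atp5b, a catalytic subunit of ATP synthase, had medians of 937 CPM in cortex, against 3090.2 in kidney, 1499 in liver and 1333 in WAT. Called higher was only Cox6a2, a tissue-restricted cytochrome oxidase subunit, with medians of 4.81 CPM in cortex, against 1.86 in kidney, 0 in liver and 0.104 in WAT. Of 13 genes of the mitochondrial genome 10 were called lower, with a median of -1.07. mt-Co1, a cytochrome oxidase subunit, had 6184 to 12994 CPM in cortex, against 9537 to 16062 in kidney, 15249.8 to 42403 in liver and 2805 to 14372 in WAT. All 52 ribosomal protein genes were called lower and 3 were low, with a median of -1.72 and a range of -1.89 to -1.32 over the alternatives. Ribosomal protein genes have many near-identical pseudogenes, so reads may be split between copies. Rplp0, a stalk protein, lay between 108 and 171 CPM in cortex (median 147), against medians of 779.6 in kidney, 750.1 in liver and 687 in WAT, with 347 in the lowest of those 24 libraries.

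Most immune genes listed were lower in cortex. All but 1 of 20 antigen presentation genes were called lower and 17 were low against each tissue, with a median of -4.27. Their sum was 154 to 185 CPM in cortex, against 1259 to 1966 in kidney, 4433 to 9236 in liver and 3599.7 to 5698 in WAT. H2-K1, a class I heavy chain, lay between 14.01 and 20.1 CPM in cortex (median 17.7), against medians of 243 in kidney, 2153 in liver and 746 in WAT, with 197 in the lowest of those 24 libraries. B2m, the class I light chain, had medians of 46.7 CPM in cortex, against 188 in kidney, 2632 in liver and 984 in WAT. Cd74, the class II invariant chain, had medians of 2.25 CPM in cortex, against 239 in kidney, 65.9 in liver and 567 in WAT. H2-K1 and H2-D1 are close relatives, so reads could be split between them; H2-D1 had medians of 30.5 CPM in cortex, against 244 in kidney, 839 in liver and 1257 in WAT. All 20 interferon response genes were called lower and 8 were low, with a median of -2.74. Bst2, which tethers budding virus, had medians of 2.06 CPM in cortex, against 16.7 in kidney, 269 in liver and 34.2 in WAT. Of 25 complement and coagulation genes 22 were called lower, 0 higher and 12 low, with a median of -6.10 (-5.47 with a prior count of 2). C3, the central complement protein, lay between 0.209 and 1.48 CPM in cortex (median 0.329), against medians of 31.2 in kidney, 8572 in liver and 1801 in WAT, with 23.3 in the lowest of those 24 libraries. On the log2 scale the difference was -11.23 without cortex library 8 and -10.60 with it. Of 18 lymphocyte genes 15 were called lower and 11 low, with a median of -4.12 (-2.38 with a prior count of 2). Their sum was 33.8 to 78.4 CPM in cortex, against 19.5 to 48.9 in kidney, 23.6 to 47.3 in liver and 117 to 602 in WAT. Igkc, an antibody light chain, had 0 to 0.298 CPM in cortex, against 1.59 to 15.7 in kidney, 3.91 to 8.39 in liver and 6.53 to 47.4 in WAT. Trbc2 and Cd4 were the 2 called higher. Trbc2, a T cell receptor constant gene, had medians of 6.94 CPM in cortex, against 0.878 in kidney, 1.16 in liver and 1.11 in WAT. Cd4, the coreceptor of helper T cells, had 7.52 CPM in cortex, against 0.652 in kidney, 0.850 in liver and 0.773 in WAT. Cd4 was lowest, near 1.03 CPM, in cortex libraries 2 and 4, which also had the lowest Drd1 and Drd2.

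Most epithelial and connective tissue genes listed were called lower in cortex. Of 22 epithelial junction genes 20 were called lower, 0 higher and 11 low, with a median of -4.76. Krt8, a keratin of simple epithelia, had 0 to 0.670 CPM in cortex, against 107 to 177 in kidney, 208 to 642 in liver and 10.05 to 258 in WAT. WAT 6 held 258 CPM of Krt8, and the other WAT libraries 10.05 to 38.6. Of 26 collagen and matrix genes 23 were called lower, 2 higher and 5 low, with a median of -2.57, from -3.39 to -1.08 over the alternatives. Against liver alone their median was 0.36. Col3a1, a fibrillar collagen, had 0.879 to 2.86 CPM in cortex, against 25.2 to 52.5 in kidney, 20.9 to 52.8 in liver and 517 to 2055 in WAT.

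Marker lists of the other tissues, of red cells and of skeletal muscle were read in the cortex libraries. Of 22 hepatocyte genes 18 were called lower and 4 were low against each tissue, with a median of -5.87, from -8.41 to -2.54 over the alternatives. Their sum was 234 to 695 CPM in cortex against 191415 to 301566 in liver. The list includes Trf and Ttr, given above with myelin and choroid plexus, which hold much of that cortex sum. Alb had 0 to 15.7 CPM in cortex, against 6.06 to 21.5 in kidney, 66735 to 132795 in liver and 8.496 to 30.2 in WAT. Its log2 fold change was -10.57 without cortex library 8 and -7.15 with it. Apoa1 also changed, to -7.28 without that library and -5.52 with it. Of 19 genes of kidney tubules 10 were called lower, 4 higher and 2 low against each tissue. Over all genes these shares were 41.5%, 42.8% and 7.98%. The median of the 19 was -5.54 (-4.66 with a prior count of 2), changed sign without kidney and was 1.61 against liver alone. Kap, an androgen-regulated proximal tubule gene, had 0 to 0.523 CPM in cortex, against 8714 to 57432 in kidney, 0 to 0.219 in liver and 0 to 43.6 in WAT. Its log2 change was -9.21 without cortex library 3 and -7.52 with it. Of 16 genes of adipocytes 15 were called lower, 1 higher and 8 low, with a median of -7.82 (-5.80 with a prior count of 2) that ran from -10.42 to -3.58, its extremes lying with WAT or liver left out. Fabp4, a fatty acid carrier, had 0 to 0.134 CPM in cortex, against 43.9 to 117 in kidney, 6.34 to 25.1 in liver and 4970.1 to 12016 in WAT. All 6 red cell genes tested, of 8 listed, were called lower and 4 were low, with a median of -3.01. Hbb-bs, a beta globin whose count is uncertain because a near-identical copy, Hbb-bt, can share its reads, had 9.82 to 31.4 CPM in cortex, against 77.9 to 427 in kidney, 34.7 to 136 in liver and 54.2 to 332 in WAT. Of 11 skeletal muscle genes listed, only 5 passed the count filter. Of these 5, 4 were called higher and 1 lower, with a median of 2.10 (1.12 with a prior count of 2) that changed sign without liver.

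The mean of the 3 other tissues is taken on a log scale, and some genes called higher against it were more abundant in 1 of them. Slc22a6, an organic anion transporter of kidney, had medians of 4.91 CPM in cortex, against 910.3 in kidney, 0 in liver and 0 in WAT. Vtn, vitronectin, had medians of 46.9 CPM in cortex, against 0.220 in kidney, 4897 in liver and 11.4 in WAT. Onecut2, a liver factor, had 5.77 CPM in cortex, against 0 in kidney, 261 in liver and 0.0612 in WAT. None of these is among the 2640 high genes, which had to exceed every other tissue.

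Most activity-dependent genes were higher. Of 25 immediate early genes 20 were called higher, 2 lower and 14 were high, with a median of 4.09. Arc, which moves into dendrites as RNA, lay between 127 and 526 CPM in cortex (median 336), against medians of 2.87 in kidney, 0.0430 in liver and 0.791 in WAT, with 4.73 in the highest of those 24 libraries. No library overlapped, despite a wide spread within cortex. Egr1, an early transcription factor, had medians of 387 CPM in cortex, against 5.12 in kidney, 11.1 in liver and 17.5 in WAT. Egr3, another, had medians of 226 CPM in cortex, against 0.0521 in kidney, 0 in liver and 1.43 in WAT, and a log2 fold change of 11.12 without Liver 1 and 10.22 with it. Fos lay between 16.1 and 74.96 CPM in cortex. Ier2, an early response gene, was called lower, with medians of 12.6 CPM in cortex, against 14.7 in kidney, 62.2 in liver and 15.7 in WAT. Sik1, a kinase, was called lower too, with 17.6 CPM in cortex, against 72.9 in kidney, 26.8 in liver and 21.8 in WAT.

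Most of the nuclear long noncoding RNAs and imprinted genes listed were called higher. Of 12 nuclear long noncoding RNAs 8 were called higher, 2 lower and 7 were high, with a median of 4.56. Miat, a nuclear RNA of neurons and other cells, had medians of 507 CPM in cortex, against 0.439 in kidney, 0 in liver and 4.90 in WAT. Malat1, a nuclear speckle RNA, was called lower, with 793 CPM in cortex, against 3134 in kidney, 1392 in liver and 565 in WAT. Neat1, which builds paraspeckles, was called lower, with 99.4 CPM in cortex, against 864 in kidney, 300.2 in liver and 1348 in WAT. Of 23 imprinted genes tested, from 26 listed, 19 were called higher, 1 lower and 9 were high, with a median of 3.22. Rian, in one cluster with Meg3, had medians of 464 CPM in cortex, against 0.518 in kidney, 1.499 in liver and 30.2 in WAT. Snrpn, a splicing protein of neurons, had medians of 359 CPM in cortex, against 13.6 in kidney, 10.3 in liver and 11.2 in WAT. Nnat, which was higher in WAT, had medians of 66.3 CPM in cortex, against 2.23 in kidney, 0 in liver and 1245 in WAT. Cdkn1c, an inhibitor of the cell cycle, was the one called lower, with 5.72 CPM in cortex, against 24.2 in kidney, 4.28 in liver and 21.8 in WAT. Of 26 cell division genes 18 were called lower, 2 higher and 3 low, with a median of -1.14. Tyms, which makes thymidylate, had 1.14 CPM in cortex, against 17.2 in kidney, 13.03 in liver and 4.68 in WAT. Pcna, the replication clamp, had 25.6 CPM in cortex, against 29.2 in kidney, 42.2 in liver and 37.1 in WAT.

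Some genes often used to scale expression measurements differed between the tissues. Of 17 reference genes 9 were called lower and 3 higher, beside 84.3% called of all genes, with a median of -0.45 and a range of -0.80 to -0.04 over the alternatives. Eef1a1, a translation factor, had medians of 1268 CPM in cortex, against 3459 in kidney, 5138 in liver and 3586 in WAT. Ppia, a prolyl isomerase, had medians of 327 CPM in cortex, against 450.1 in kidney, 608 in liver and 426 in WAT. Ywhaz, a 14-3-3 protein, had medians of 591 CPM in cortex, against 220.3 in kidney, 116 in liver and 118 in WAT. Actb and Gapdh had log2 fold changes of -0.05 ± 0.10 and -0.07 ± 0.16 and were not called; with total counts the signs turned, to 0.35 and 0.33.

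Genes that were high in cortex spanned more of the genome. Over protein-coding genes the median span was 40.8 kb for high genes and 16 kb for low genes, against 24.6 kb for all genes tested. Spans over 100 kb were found for 31.2% of high and 6.93% of low genes, against 14.9% of all. Genes were put in 10 equal bins by span. In the bin of longest spans, with a median of 228 kb, 35.3% were high and 2.92% low in cortex, and the median log2 fold change was 1.87. In the shortest bin, with a median of 3.01 kb, 12.5% were high and 9.60% low, and the median was -0.78. High genes were least frequent in the fifth bin, at 8.51%. The median was higher in each longer bin than in the one before, which is a description across genes and was given no test. Long noncoding RNAs were 11.1% of high genes, 9.91% of low genes and 8.46% of all. Pseudogenes were 24 of 2574 annotated high genes, 152 of 1433 low genes and 691 of 18060 in all.

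**Figure D4:**
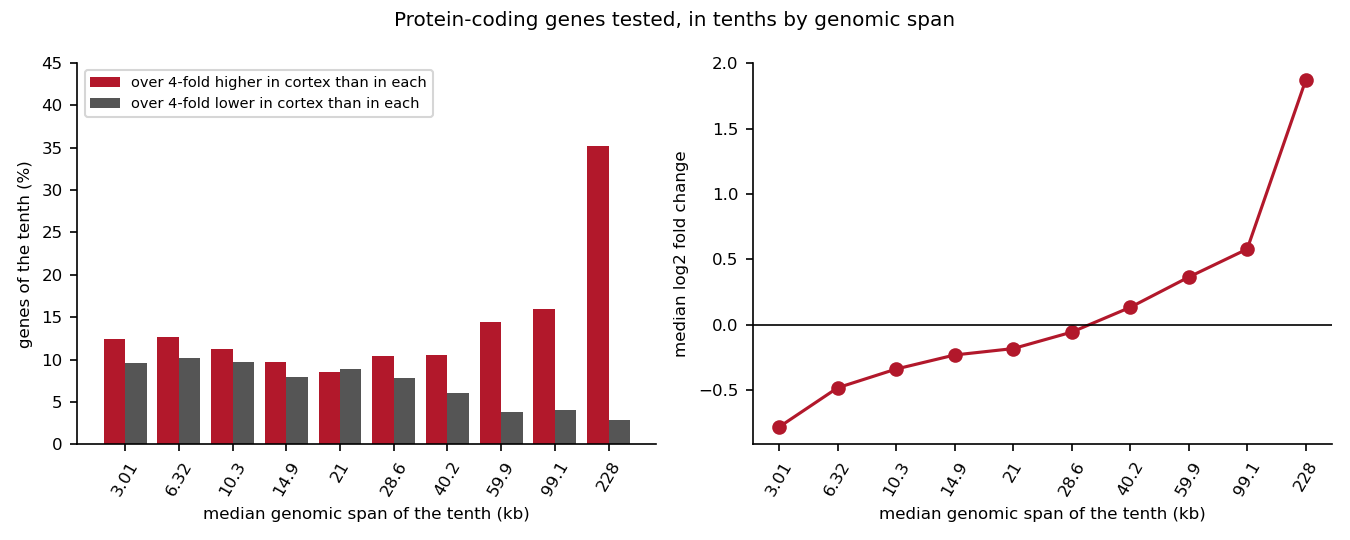
Protein-coding genes in 10 bins by genomic span, labelled by median span in kb: percent high and percent low in cortex against each other tissue (left, bars) and median log2 fold change against their mean (right). The share of high genes is 12.5% in the shortest bin, 8.51% in the fifth, where it is lowest, and 35.3% in the longest.

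Some genes varied among the 8 cortex libraries far more than the common variation of 0.123. Drd1 was 6.08 CPM in library 2 and 7.83 in library 4, against 19.9 to 39.7 in the other 6. Drd2 was 4.56 and 4.94 CPM in the same libraries, against 20.3 to 51.9 in the other 6. Ppp1r1b, a phosphoprotein of dopamine-receptive neurons, followed with 71.1 and 86.5 CPM, against 232 to 460.3, so that libraries 2 and 4 were the lowest for all 3 genes. Ttr, the transport protein transthyretin that choroid plexus makes, followed another order: it was 453 CPM in library 2 and 382 in library 6, and 1.31 in library 1. On the log2 scale the difference was 0.04 without library 2 and 0.81 with it, and was not called. Fos was highest in library 2 at 74.96 CPM and lowest in library 1 at 16.1. Arc was also highest in library 2 at 526 CPM and lowest in library 1 at 127. The library numbers are names without an order. By contrast Snap25 varied between 1933 and 2461 CPM and Mbp between 1111 and 1517.

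**Figure D5:**
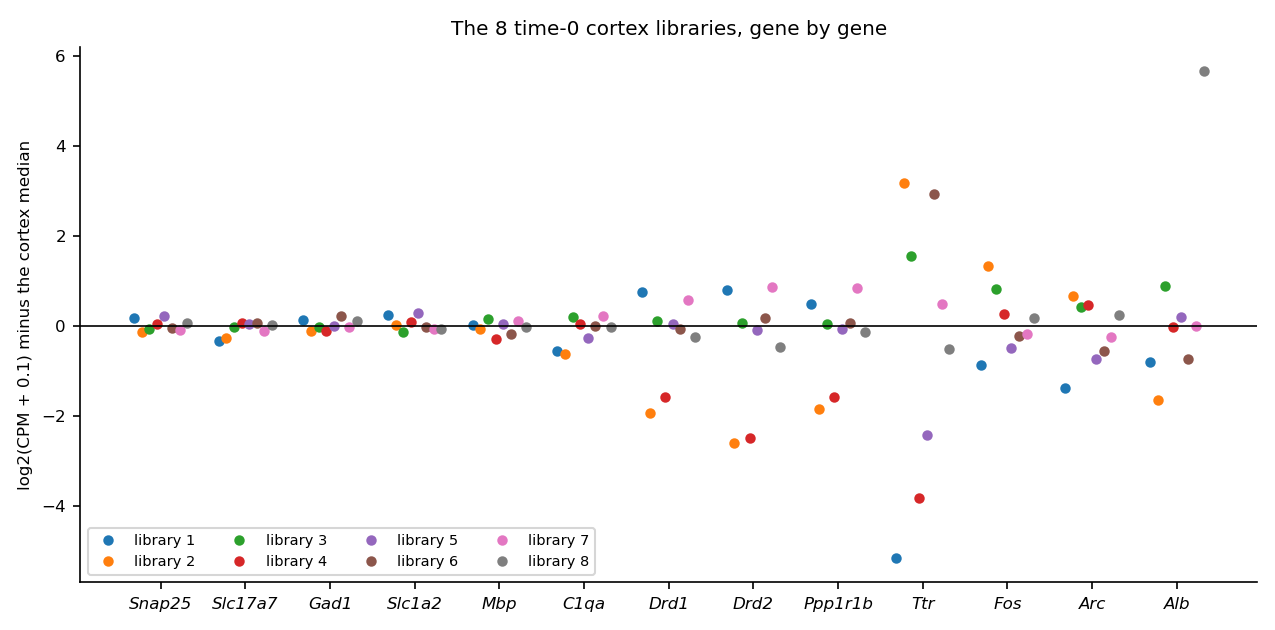
Log2 of CPM plus 0.1 minus the cortex median for 13 genes in each of the 8 cortex libraries (colours). Snap25 and Mbp hold within a narrow band, while Drd1 and Drd2 lie lower in libraries 2 and 4, Ttr spreads between 1.31 and 453 CPM, and Alb stands out in library 8.

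The comparison was repeated in the 2 groups of older mice, which share no library with it. There the labels give an animal code, and libraries of different tissues carry the same codes. The fit had terms for tissue and sex and none for animal, so this pairing was not used. After 3 months of TLS, 2568 genes were high (13.8%) and 1608 low (8.64%) in cortex; of these, 2356 high and 1133 low genes were shared with time-0. The shared high genes were 89.2% of the time-0 set and 91.7% of the TLS set, and the shared low genes 77.1% and 70.5%. In controls, 2698 genes were high (14.4%) and 1405 low (7.52%), with 2442 and 1094 shared. That was 92.5% of the time-0 high genes and 90.5% of the control ones, and 74.5% and 77.9% of the low genes. Log2 fold changes against time-0 correlated across genes with r = 0.984 for TLS over 18059 genes and r = 0.987 for controls over 18140, a description, since genes are not independent replicates. Of genes called in both, 10 of 13832 went the opposite way in TLS and 3 of 14414 in controls. Snap25 had log2 fold changes of 14.64 in TLS, 13.57 in controls and 14.34 at time-0. For Bc1 they were 6.27, 6.50 and 7.23.

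Few genes were called between female and male cortex. A fit with tissue crossed with sex called 8 genes in cortex (0.0434%; 3 higher and 5 lower in females), and 252 passed an unadjusted p of 0.05. In the mean of the other tissues 1314 genes were called (7.13%), and the difference between the 2 sex effects was called for 42 (0.228%). The counts for cortex and for the other tissues are not like for like, since they rest on 8 and 24 libraries. All tissues also shared 1 estimate of spread per gene. Cortex alone varied least (common BCV 0.123), so the cortex test may miss small sex effects. The 1 cortex call among genes not assigned to X or Y was Erdr1, a gene of the pseudoautosomal region of the mouse sex chromosomes. Genes whose symbol lacked a single GENCODE vM21 entry had no chromosome here and counted as not assigned. Erdr1 averaged 38.8 ± 6.72 CPM in females and 7.52 ± 2.93 CPM in males (SD, n = 4 each), with a log2 fold change of 2.36 ± 0.36 (SE) and an edgeR adjusted p of 0.000801. Its female and male cortex libraries did not overlap. The sex effect of Erdr1 was of like size elsewhere, at 2.39 ± 0.21 (SE).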

How the data were processed

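Polyadenylated RNA of 8 cortex, 8 kidney, 8 liver and 8 WAT libraries, all labelled time-0 and with a single batch label, was compared. The deposited table holds whole-number counts for 55401 features, and featureCounts is named in its first line per the file headers. That line also carries the word "corrected", which it does not explain. STAR 2.7.10, DESeq2 and builds mm10 and GRCm38 are named per the submitters' processing notes; the annotation and the strand setting are not given in the sources used here, so overlapping and antisense genes cannot be told apart. Of the 496 pairs of libraries, 0 were identical.

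Genes were kept with filterByExpr (minimum count 10), scaled by TMM and tested with edgeR 4.0.16 in R 4.3.3 (robust quasi-likelihood, with terms for tissue and sex). A call needed a Benjamini-Hochberg adjusted p below 0.05, with all tested genes in the adjustment. Cortex was set against the mean of the 3 other tissues, each weighted equally, and against each alone. Fitted log2 fold changes use edgeR's default prior count of 0.125, gaps between groups a prior count of 2, and CPM are TMM-scaled. The script was tested on simulated data. Sex was taken from the labels and age from the file header. The labels do not say that libraries came from separate animals, so p-values measure the spread between these samples. Replicate numbers were not treated as pairs: deviations of libraries sharing a number correlated with a mean of 0.00894 over 48 pairs (from -0.356 to 0.348), against -0.00135 over 336 other pairs. The sex labels of kidney 4 and 5 are the reverse of those numbers in the other tissues, so a block with them exchanged was run as well (mean correlation 0.00988).

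The members and gene lists were chosen with earlier results of these data known. Genes named are those leading the high and low sets by level or by gap. From each list come up to 5 called members of highest level and up to 3 with the largest change against the list's majority. The rule also names the related pairs and the leading sex difference among genes not assigned to X or Y. Of 179 genes in the text, 11 fall outside this rule and were chosen after their values were seen or by promoter letters: Actb, Cx3cr1, Drd1, Drd2, Fos, Gapdh, Lca5, P2ry12, Rest, Robo2 and Scamp5. Fam163b, Fbll1, Hrh3, Ogdhl, Osbp2, Sptbn4 and Ttc9b, printed only with their promoter windows, were chosen by promoter letters and are not in these counts. Positions of genes came from GENCODE vM21 by symbol, and promoters from RefSeq (GRCm38.p6). RefSeq promoters covered 78.6% of protein-coding genes, so comparisons of base composition over gene sets are void. Some genes that the rule names are not reported here. Alternatives were other scalings, filters, fold thresholds, DESeq2 1.42.0, limma 3.58.1 voom, no sex term, a replicate block, each sex alone, each other tissue left out, and each cortex library left out; leaving out Liver 1, Kidney 8 and WAT 6, singly and together, and fitting fold changes with a prior count of 2 were chosen after seeing the data.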

Additional observations from a re-analysis of the deposited data

Results flagged for a closer look

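Of 234 sets of 8 cortex values examined (genes and lists named above), 24 had 1 library apart by Dixon's criterion for a gap to the nearest value relative to the range, where chance gives about 1 in 20. Values are log2 CPM, as means over members for lists.

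Cortex library 8 stood highest for genes of liver. Its hepatocyte list was at 0.73, its list of amino acid breakdown at 1.66 and its drug-metabolising list at 0.64. In the same library Alb was at 3.98, Apoa1 at 1.78, Cyp2e1 at 0.74, Hnf4a at -2.12 and Pck1 at 0.10. The next highest cortex library had Alb at -0.78. Library 3 was highest for the kidney tubule list, at -0.54. The source of these transcripts was not tested.

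Glial and neuronal genes were flagged in other libraries. Library 4 was lowest for the oligodendrocyte and myelin list, at 6.30. Library 7 was lowest for the oligodendrocyte precursor list, at 4.43, and for Gabbr2, at 7.93. Library 2 was lowest for Nrgn at 10.33, Map1a at 9.95 and Cd36 at -2.76. Library 5 was highest for Cux1 at 6.61, Cux2 at 7.14, Msi2 at 5.97 and the microglial receptor P2ry12 at 4.70. Library 1 was highest for Acsl6 at 7.85 and lowest for the metallothionein Mt2 at 5.22, Vamp8 at 2.04 and Tyms at -0.89. Library 6 was lowest for Acadm, at 4.22.

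The sex effect (female minus male log2 fold change) differed between cortex and the mean of the other tissues for 3 named genes in edgeR's test of the difference itself. For Cux2 the difference was -2.53 (adjusted p = 0.00734), with -0.06 in cortex and 2.48 in the other tissues. For Nrn1 it was -2.53 (adjusted p = 0.000262), with 0.01 in cortex and 2.54 elsewhere. For Alb it was -5.10 (adjusted p = 0.0478), with -4.37 in cortex, where library 8 is male, and 0.73 elsewhere.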

How the results depend on the processing

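The counts of genes called against the mean and against each tissue stayed within 1.5 times under every alternative run. The stricter counts moved with the settings that define them: without the low-count filter 4031 genes were high, with a 16-fold threshold 1506 were high and 373 low, and with a 2-fold threshold 2962 were low, against 2640 high and 1469 low as reported. Leaving out 1 library gave 2640 to 2771 high and 1405 to 1514 low genes. A replicate block gave 2705 high genes, of which 2638 were shared; with kidney 4 and 5 exchanged it gave 2706 high and 1434 low. With a prior count of 2 in the fitted fold changes 2564 genes were high and 1021 low. Of the list medians under the alternatives, 459 moved by more than the SD of the cortex libraries and 1026 did not. Of the fold changes of named genes under the alternatives, 4771 kept direction and side of the threshold, 30 lost the call, 10 gained it and 13 reversed. With the prior count of 2 Snap25 was 13.35, Pcsk1n 11.79, Gad1 10.44, Egr3 9.27, Pou3f3 4.43, Kap -6.85, Slc2a2 -7.81, Hnf4a -9.48, Fabp4 -10.59, Ces1d -12.18 and Pck1 -13.26. With total counts Cux1 was 0.39, Elavl1 0.25, Actb 0.35 and Gapdh 0.33. Without kidney Cux1 was 0.76, Enpp6 0.95, Vtn -2.31 and Folr1 0.58. Without liver Emx2 was -1.08, Oxct1 -1.49 and Slc22a6 -1.62, and without WAT Scn7a was 1.90 and Ttr -2.87. DESeq2 gave no adjusted p for 8 named genes. The number of libraries, 8 per tissue, and the lack of stated animals at time-0 limit how far these errors extend beyond the samples.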
